A study of Homo sapiens with 16 samples.

Results

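RNA polymerase II phosphorylated at serine 5 of its C-terminal repeat was mapped by chromatin immunoprecipitation and sequencing in HCT116, a human colorectal carcinoma cell line, and in DKO. The regions described are all 149589 rows of the authors' table for this polymerase form, chosen without regard to their values, out of 1255311 regions in the 7 tables of the series. The series held 16 samples, of which 14 were immunoprecipitated libraries, 1 per line for each of 7 targets, and 2 were input libraries, which were not analysed here. DKO is known as a clonal derivative of HCT116 that carries disruptions of DNMT1 and DNMT3B, which encode DNA methyltransferases, though the labels give only the name of the line. The levels of these genes were not checked here. Both lines were grown in the same medium and no treatment is named. The serine 5 antibody was the same in both lines. The study's title names DNA methylation, CTCF, cohesin and the choice of polyadenylation site, and polyadenylation was not analysed here. With a single library for each line and target there were no replicates, so every difference is a value without a test.

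The C-terminal repeat of the largest polymerase subunit is phosphorylated at serine 5 by the kinase of the general factor TFIIH as transcription starts. This form is therefore known to peak at promoters and enhancers, where polymerase initiates and pauses, and to decline along the gene body, where phosphorylation of serine 2 by elongation kinases takes over. Acetylation of lysine 27 of histone H3 (H3K27Ac) marks active promoters and enhancers. CTCF is a zinc finger protein of insulators and domain boundaries that does not bind some of its sites when they are methylated, and RAD21 and SMC1 are subunits of cohesin, the ring complex that often halts at CTCF. DNA methylation at promoters is a known mark of silenced genes in colorectal cancer cells. Genes were not assigned to regions here, so whether a region is a promoter, an exon or an intron is not stated.

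The measurement is a normalized read density per kb of a 2 kb window in each line, and the log2 ratio is the DKO density over the HCT116 density. The reads of a region longer than this window cover only part of it, and those of a shorter region include its surroundings. Where the window lies in a long region is not stated. A region is called higher in a line at a 2-fold difference, a log2 ratio of at least 1 in size, and similar at a log2 ratio within 0.5 of 0. The reads behind each density were recovered as whole numbers. The median region had 43 DKO reads and 23 HCT116 reads, and the 10th and 90th percentiles were 9 and 180 reads for DKO and 11 and 83 for HCT116. The authors' scaling divides the DKO reads by 1.66 at the median region relative to HCT116, so equal densities stand for more DKO reads. Another region's midpoint lay within 2 kb of 60.9% of regions, so neighbours often share reads and counts of regions are not counts of independent sites.

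Serine 5 polymerase was at least 2-fold higher in HCT116 at more regions than in DKO, but the regions higher in HCT116 were mostly short and sparsely covered, with 23476 of 31457 under 300 bp. At least 2-fold higher in DKO were 22346 regions (14.9%), and at least 2-fold higher in HCT116 were 31457 (21.0%), while 57716 were similar. At 4-fold the counts were 5973 (3.99%) and 11273 (7.54%). Reads were few enough in places that the counting error matters: the 95% counting interval of the log2 ratio lay wholly past 2-fold at 7655 regions for DKO and 9364 for HCT116. Without the lowest quartile of density the balance turned, with 18142 regions higher in DKO and 10517 in HCT116. It did not turn among regions with at least 20 reads in both libraries together (22158 and 24608) or among those whose counting interval excluded 0 (21845 and 28716).

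Density separated the directions. Quartiles were formed on the mean of the log2 densities, with bounds at 3.29, 3.98 and 4.68 on that scale. In the lowest quartile, with a median of 11 DKO and 14 HCT116 reads, the median log2 ratio was -1.20, and 55.9% of regions were higher in HCT116 against 11.2% in DKO. This quartile alone held 20940 of the 31457 regions higher in HCT116. Of its regions 0.390% were called in both lines, so a scaling set on such regions rests on few of them here. In the second quartile 17.5% were higher in DKO and 15.3% in HCT116, in the third quartile 18.1% and 7.64%, and in the highest, with medians of 132 and 62 reads, 12.9% and 5.19%. The median log2 ratios of these quartiles were 0.06, 0.26 and 0.13. The order of the directions in the second quartile turned when a single scale factor for the whole table replaced the authors' scaling, which varies with density (5821 higher in DKO and 6514 in HCT116), whereas that of the other quartiles did not. Density and the log2 ratio are made from the same reads, so this is a description of where the differences sit.

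**Figure D1:**
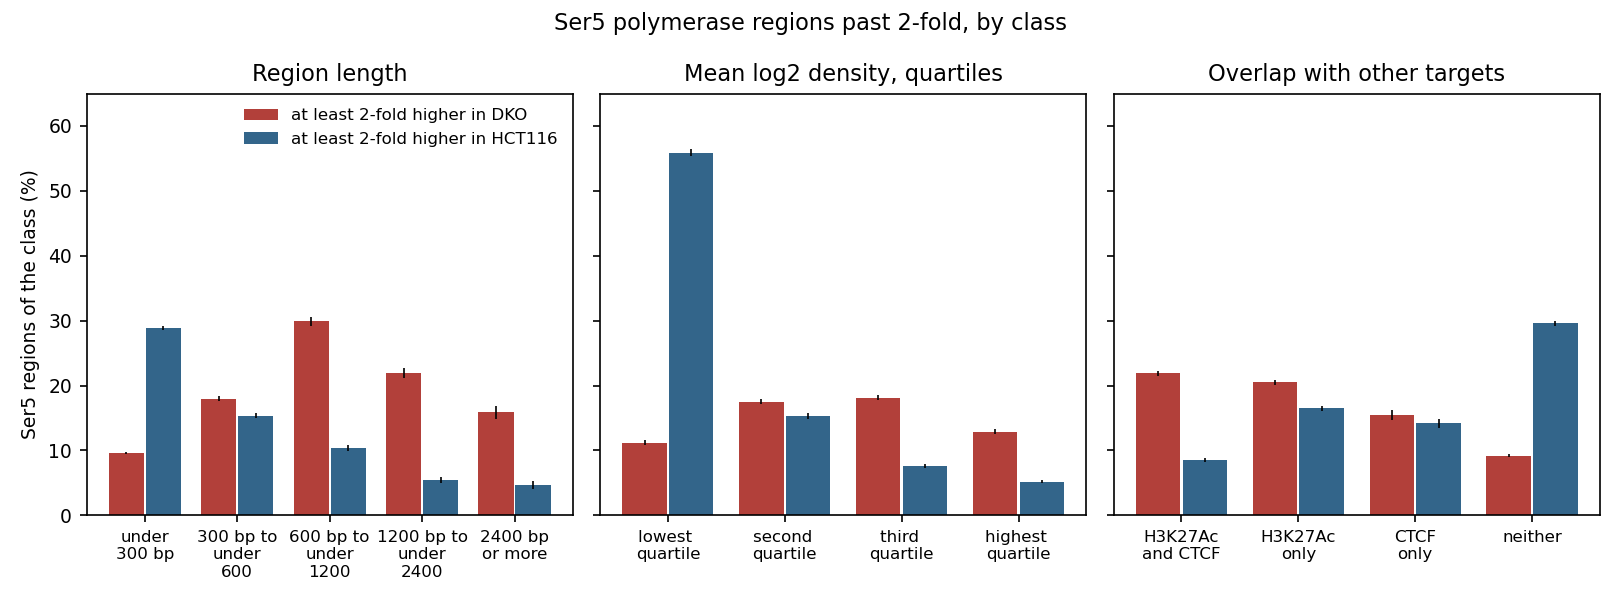
Share of serine 5 polymerase regions (percent, vertical axis) at least 2-fold higher in DKO (red) or in HCT116 (blue), by region length, quartile of mean log2 density and overlap with H3K27Ac or CTCF regions; thin bars are 95% Wilson intervals over regions. HCT116 is higher at 55.9% of the lowest density quartile and 28.9% of regions under 300 bp, while DKO leads from 300 bp and from the second quartile upward. The DKO leads from 300 to under 600 bp and in the second quartile turn under a single scale factor.

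Length showed a similar separation over all regions, with a peak in DKO at intermediate lengths. Of the 81299 regions under 300 bp, 9.64% were higher in DKO and 28.9% in HCT116 (median log2 ratio -0.27). From 300 to under 600 bp the shares were 18.0% and 15.3%, a lead that turned under the single scale factor (5757 against 5875 regions). From 600 to under 1200 bp they were 29.9% and 10.4%, with the highest median of the 5 classes, 0.47. In the longer classes the median was nearer 0 while DKO kept the larger share past 2-fold, with 21.9% and 5.42% from 1200 to under 2400 bp (median 0.17) and 15.9% and 4.63% at 2400 bp or more (median 0.07). The contrast in medians between long and short regions was not found among dense regions. In the highest density quartile the median was 0.11 under 300 bp and 0.07 at 2400 bp or more, while the share higher in DKO was 7.56% and 15.3%.

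The authors' grouping of regions by the line in which they were called also separated the log2 ratios, and it was made from the same libraries. Regions called in DKO only numbered 68863 (46.0%), in HCT116 only 50653 (33.9%), and in both lines 30073 (20.1%). Those called in both lines had a median log2 ratio of 0.00, with 7.00% higher in DKO and 6.17% higher in HCT116. Regions called in DKO only had a median of 0.57, and 29.3% of them reached 2-fold, so at most of them the lines differed by less. Regions called in HCT116 only had a median of -1.18, and 57.8% reached 2-fold, on medians of 15 DKO and 21 HCT116 reads.

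**Figure D2:**
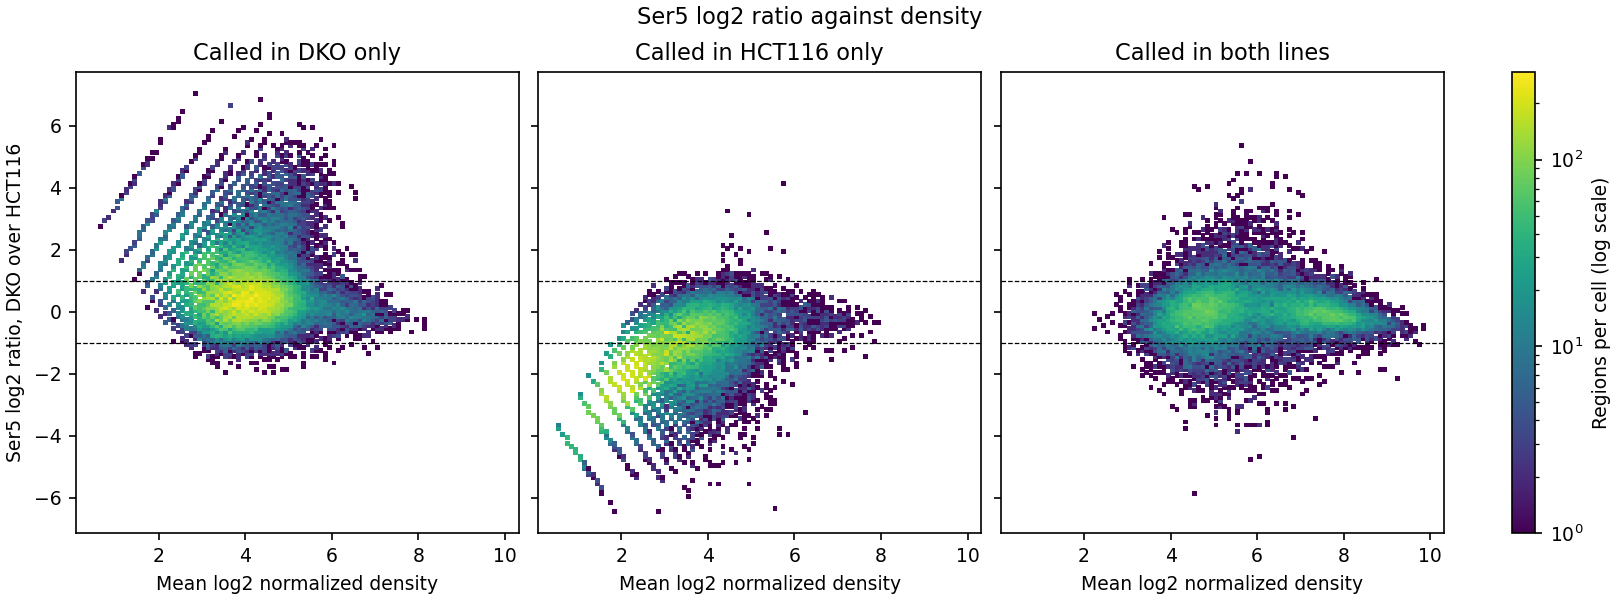
Log2 ratio of serine 5 polymerase, DKO over HCT116 (vertical axis), against the mean log2 normalized density (horizontal axis) for regions called in a single line, DKO or HCT116, and in both; colour gives regions per grid cell on a log scale and dashed lines mark 2-fold. The HCT116-only regions lie mostly at low density and below 0 (median -1.18), the DKO-only regions lie around 0.57, and diagonal stripes at low density are regions that share the same small number of reads in a library, from 0 upward.

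Long regions called in a single line had large differences on many reads, but these calls were made from the same libraries. Among regions of 1200 bp or more, 2240 were called in DKO only and 180 in HCT116 only, beside 14461 called in both lines. The DKO-only ones had a median of 166 DKO reads and 18 HCT116 reads and a median log2 ratio of 2.48. The HCT116-only ones had medians of 17 and 104 reads and a median log2 ratio of -3.29. At the regions called in both lines the medians were 360 and 190 reads and the log2 ratio was 0.05. The HCT116-only class was the smaller and had the larger median difference. Equal densities stand for more DKO reads, and the part of this in either class was not tested.

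The other libraries give measurements that did not enter the calling of these regions. Of the 2240 long DKO-only regions, 2034 overlapped an H3K27Ac region, whose median log2 ratio was 1.48 (95% interval over regions 1.37 to 1.55), and acetylation was past 2-fold toward DKO at 60.5% of these, against 11.0% of all H3K27Ac regions. A CTCF region overlapped 1500 of them, with a median CTCF log2 ratio of 1.43, and CTCF was past 2-fold toward DKO at 63.8% of those, against 20.1% of all CTCF regions. Acetylation was called in both lines at 59.6% of the overlaps and in DKO only at 741 of them. Serine 2 polymerase, the elongating form, overlapped 1761 regions with a median of 1.27 (1.21 to 1.33), 59.0% of them past 2-fold toward DKO against 18.6% of all serine 2 regions.

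The 180 long HCT116-only regions had lower acetylation in DKO and, by a smaller median, lower CTCF. H3K27Ac overlapped 162 of them with a median of -2.54 (-2.82 to -2.28), and 88.9% were at least 2-fold higher in HCT116, against 10.4% of all H3K27Ac regions. CTCF overlapped 81, with a median of -0.81 (-1.10 to -0.55), and 34 of these were at least 2-fold higher in HCT116, against 6.33% of all CTCF regions. Serine 2 polymerase overlapped 118, with a median of -2.22. Long regions called in both lines had medians of 0.03 for H3K27Ac, 0.18 for CTCF and 0.35 for serine 2 polymerase.

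The single regions with the strongest differences were ranked by the nearer bound of the counting interval, among regions at or above the median of the higher density, taking 1 region per 50 kb. Coordinates are those of the authors' table in build hg19. The first for DKO, chr1:53307810-53309763, had 567 reads in DKO and 2 in HCT116, with serine 2 polymerase at 2.31 on the log2 scale. Of 11 serine 5 regions within 50 kb, 3 were higher in DKO and 2 in HCT116. The second, chr17:26592362-26596703, had 549 and 3 reads, a log2 ratio of 6.35 (95% counting interval 5.21 to 9.05), with H3K27Ac at 4.27 and 12 of 16 serine 5 regions within 50 kb higher in DKO. On chromosome 2, 2 regions near each other were among the 8. One, chr2:132300367-132301484, had 333 and 1 reads (6.67, 5.17 to 12.97), and the other, chr2:132201461-132204085, had 772 and 6 (6.02, 5.11 to 7.69). Around them 16 of 26 and 12 of 28 regions were higher in DKO and none in HCT116. H3K27Ac was at 4.18 and 4.25 and CTCF at 1.73 and 2.75 in these 2 regions.

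Acetylation without a CTCF region was found at 3 of the 8. At chr11:133938682-133939713 there were 325 DKO reads and 1 HCT116 read (6.63, 5.14 to 12.93), with H3K27Ac at 3.20 and serine 2 polymerase at 3.67. The same read counts were found at chr1:36334540-36335645, with H3K27Ac at 3.37. Of 10 serine 5 regions within 50 kb of the latter, 4 were higher in DKO and 1 in HCT116. At chr10:2249350-2250642 DKO had 210 reads and HCT116 had 0, with 206 acetylation reads in DKO and 7 in HCT116. At a floor of 3 HCT116 reads it was 43.4-fold higher in DKO, and the nearer bound of its counting interval was 5.13. The region on the X chromosome, chrX:70886033-70888392, had 514 and 3 reads (6.26, 5.12 to 8.96), with smaller differences of H3K27Ac (2.13) and CTCF (0.59). All 8 were called in DKO only, and HCT116 had at most 6 reads at each.

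Acetylation was not in proportion to serine 5 polymerase at every long region higher in DKO. At chr16:13699520-13702696 there were 839 and 7 serine 5 reads (5.94, 5.08 to 7.45) and 743 and 17 acetylation reads (5.58). At chr11:61264778-61267903 there were 934 and 8 serine 5 reads (5.92, 5.10 to 7.30), but acetylation was at 0.88 with 220 and 135 reads, while CTCF was at 2.50 with 59 and 8. Of 16 serine 5 regions within 50 kb, 6 were higher in DKO and 2 in HCT116. The first-ranked regions with CTCF and no acetylation had smaller differences, in a class of 8978 regions against 33988 with H3K27Ac only. The medians over all regions of these classes were 0.19 and 0.18. The first-ranked of these, chr6:170733822-170734539, had 122 and 3 serine 5 reads (4.23, 3.05 to 6.93) beside 107 and 16 CTCF reads (2.51), and 7 of 9 serine 5 regions within 50 kb were higher in DKO. The fourth, chr20:57426740-57426980, had 245 and 12 serine 5 reads (3.48, 2.76 to 4.57) beside 418 and 74 CTCF reads (2.51), with 14 of 26 regions around it higher in DKO and none in HCT116.

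**Figure D3:**
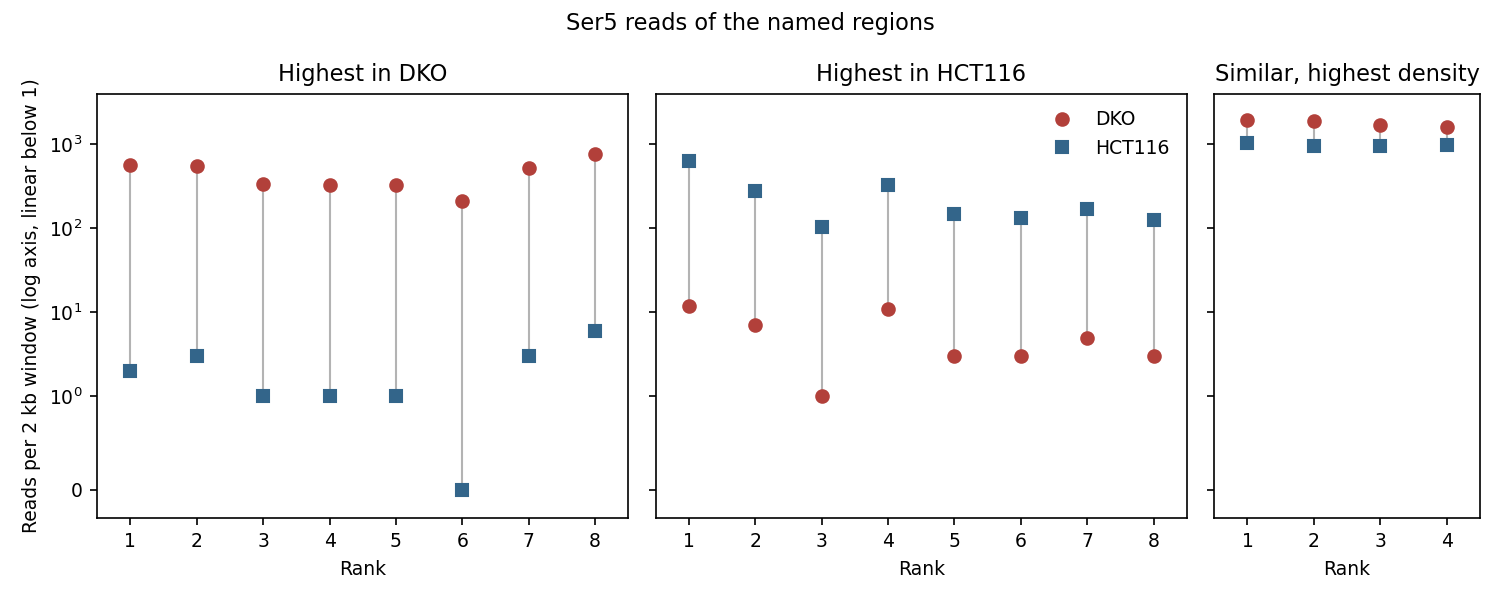
Serine 5 reads per 2 kb window in DKO (red circles) and HCT116 (blue squares) at the 8 first-ranked regions in each direction and the 4 similar regions of highest density, 1 library per line, on a log axis that is linear below 1. HCT116 has 0 to 6 reads at the regions highest in DKO, DKO has 1 to 12 at those highest in HCT116, and at the similar regions the DKO reads exceed those of HCT116 because equal densities correspond to more DKO reads.

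In the HCT116 direction 4 of the first 8 regions lay on chromosome 4. The first, chr4:75229600-75236139, a 6539 bp region, had 12 DKO and 637 HCT116 reads in its counting window, which covers only part of it. Its serine 2 log2 ratio was -5.07, beside -4.58 for acetylation, and 9 of 10 serine 5 regions within 50 kb were higher in HCT116. Farther along, chr4:75556233-75560474 had 3 and 146 reads (-5.91, -8.61 to -4.74), and all 25 serine 5 regions within 50 kb were higher in HCT116. At chr4:11699459-11701256 there were 1 and 104 reads (-6.40, -12.71 to -4.88), with 27 and 823 acetylation reads. The fourth on this chromosome, chr4:169456515-169458429, had 11 and 326 reads (-5.53, -6.67 to -4.79), and 17 of 19 regions around it were higher in HCT116. Around each of these 4, most of the surrounding serine 5 regions were higher in HCT116 as well.

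The other 4 lay on chromosomes 1, 2, 6 and X. The region chr1:8249708-8255538 was the only one of the 16 called in both lines, with 7 and 276 reads (-5.86, -7.38 to -4.99), and its acetylation was lower by less, at -1.99 with 253 and 1070 reads. Acetylation was likewise the smaller difference at chr2:227523392-227527715, with 5 and 170 serine 5 reads (-5.56, -7.46 to -4.57) beside 207 and 962 acetylation reads (-2.11), and all 17 serine 5 regions within 50 kb were higher in HCT116. At chr6:145245031-145247382 there were 3 and 132 reads (-5.77, -8.47 to -4.59). At chrX:28523727-28526245 there were 3 and 125 reads (-5.69, -8.39 to -4.51) and 3 and 323 acetylation reads, the lowest acetylation log2 ratio of the 8 at -6.03.

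For comparison, the 4 regions of highest mean density were taken among those with a log2 ratio within 0.25 of 0. They were chr20:47893535-47908299 with densities of 698 in DKO and 703 in HCT116, chr17:80052929-80061189 with 694 and 646, chr17:80184307-80191880 with 617 and 658, and chr5:179242662-179261409 with 584 and 672. Their log2 ratios were -0.01, 0.10, -0.09 and -0.20, with counting intervals between -0.32 and 0.22. Their lengths were 7573 to 18747 bp, so each value covers only the part of the region in its counting window. Around chr20:47893535-47908299, 22 of 33 regions were higher in DKO. It lies in the interval of chromosome 20 from 42 to 48 Mb, in which serine 5 regions called in both lines had a median log2 ratio of 0.43 (0.36 to 0.63, 128 regions). In the interval of chromosome 13 from 48 to 54 Mb that median was -0.88 (-0.98 to -0.64, 41 regions). DNA copy number was not measured, and a different number of copies and a different amount of polymerase per copy cannot be told apart in these intervals.

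Overlap with the other targets divided the regions further. Of all serine 5 regions, 32988 overlapped both an H3K27Ac and a CTCF region, 33988 H3K27Ac only, 8978 CTCF only and 73635 neither. The shares higher in DKO were 21.9%, 20.5%, 15.5% and 9.20% in that order, and those higher in HCT116 were 8.49%, 16.5%, 14.2% and 29.6%. Median log2 ratios were 0.22 with both, 0.18 with H3K27Ac only, 0.19 with CTCF only and -0.28 with neither. Regions with neither mark therefore held 21776 of the 31457 regions higher in HCT116. For CTCF only the order of the directions turned under the single scale factor (1230 against 1407), and for the other 3 classes it did not.

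The medians of these groups lay close together in the highest density quartile and apart in the other 3. In the highest density quartile the medians were 0.12 with both targets, 0.13 with H3K27Ac only, 0.26 with CTCF only and 0.14 with neither. The shares higher in DKO there were 15.3%, 11.7%, 9.65% and 6.61%. In the second quartile the medians were 0.48, 0.24, 0.21 and -0.05 in the same order, and the shares were 33.2%, 27.2%, 18.6% and 11.0%. In the third quartile the medians were 0.53, 0.33, 0.32 and 0.14, and in the lowest they were -0.13, -0.78, -0.69 and -1.26. Among regions called in both lines the medians lay between -0.03 and 0.02.

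Serine 5 polymerase followed the direction of acetylation at the same region. Where H3K27Ac was at least 2-fold higher in DKO, 9998 serine 5 regions had a median log2 ratio of 1.44 (1.41 to 1.48), 64.4% were higher in DKO and 0.990% in HCT116. Where H3K27Ac was at least 2-fold higher in HCT116, 7820 regions had a median of -1.50 (-1.53 to -1.46), with 66.1% higher in HCT116 and 1.71% in DKO. With similar H3K27Ac the median was 0.17, and 13.2% and 4.55% were past 2-fold. Across the 66976 overlapping regions the Spearman correlation was 0.63. It was 0.55 among the 23992 regions called in both lines and 0.66 among the 15922 of at least 1200 bp. These points share the same lines, positions and DNA copy number, and neighbouring regions can share one H3K27Ac region.

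CTCF gave the same order with smaller differences. At 9272 serine 5 regions whose CTCF was at least 2-fold higher in DKO the median was 0.88 (0.86 to 0.91), with 45.4% higher in DKO and 2.52% in HCT116. At the 1555 regions whose CTCF was at least 2-fold higher in HCT116 it was -0.89, and 47.5% were higher in HCT116. The Spearman correlation was 0.47 over 41966 regions and 0.37 over the 18288 called in both lines. It was 0.52 over the 32988 regions that also had H3K27Ac and 0.30 over the 8978 that did not. The directions of the medians for acetylation and CTCF held under the single scale factor and with chromosome medians removed.

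**Figure D4:**
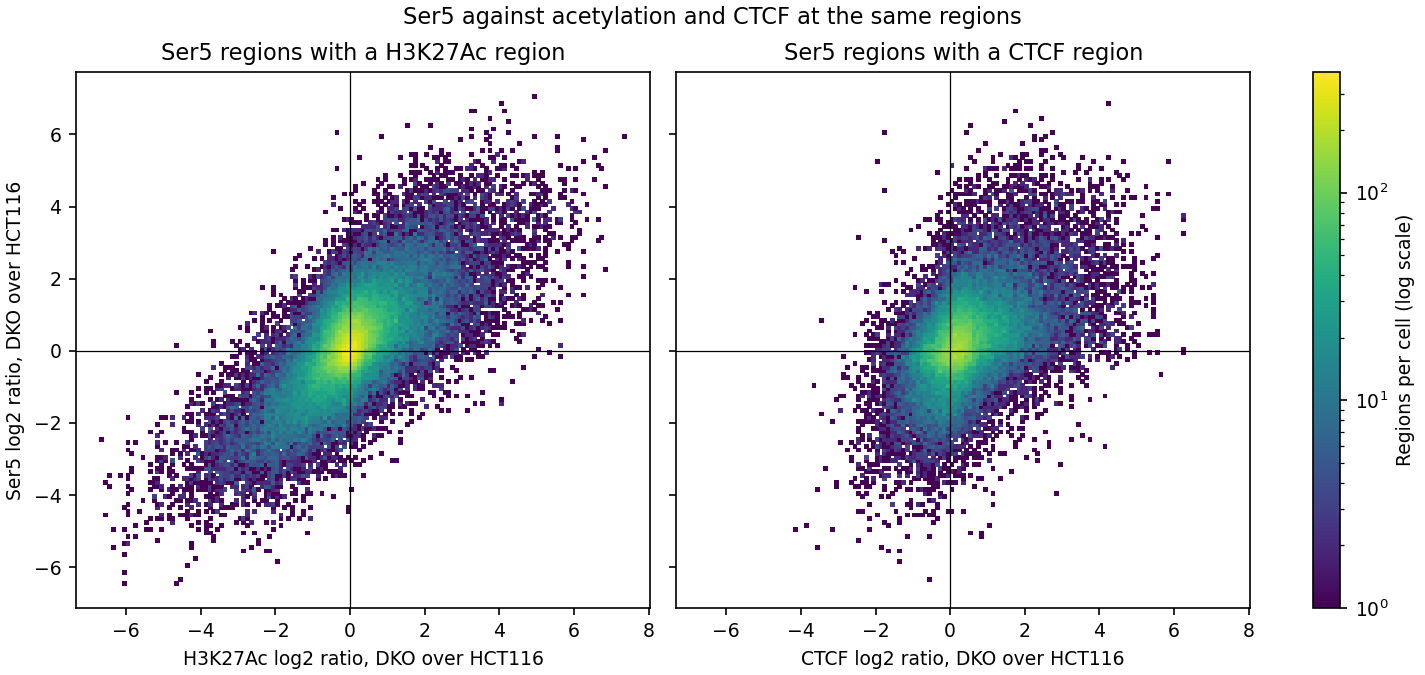
Log2 ratio of serine 5 polymerase (vertical axis) against the log2 ratio of H3K27Ac (left) and CTCF (right) at overlapping regions, DKO over HCT116; colour gives regions per grid cell on a log scale. Serine 5 and H3K27Ac spread along a diagonal in both directions (Spearman correlation 0.63, 66976 regions), while for CTCF the cloud extends mainly toward DKO (Spearman correlation 0.47, 41966 regions).

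Where both targets were measured, each went with serine 5 polymerase beside the other, but CTCF only by a small median in the HCT116 direction. At 2316 regions with both H3K27Ac and CTCF higher in DKO the serine 5 median was 2.19 (2.12 to 2.28), and 81.1% were higher in DKO. With CTCF higher in DKO and H3K27Ac similar, 2876 regions had a median of 0.68 (0.65 to 0.72) and 33.9% were higher in DKO. With H3K27Ac higher in DKO and CTCF similar, 1038 regions had 1.20 (1.14 to 1.27) and 58.0%. With both similar the median was 0.06 and the share 7.87% of 10634 regions. In the opposite direction, regions with both targets higher in HCT116 had a median of -1.99 (-2.11 to -1.89), and 508 of them (84.8%) were higher in HCT116. With CTCF higher in HCT116 and H3K27Ac similar, 442 regions had a median of -0.15 (-0.21 to -0.11), and 10.2% were higher in HCT116. With H3K27Ac higher in HCT116 and CTCF similar, 1301 regions had -1.01 (-1.07 to -0.96) and 50.7%. Where acetylation was higher in HCT116 and CTCF higher in DKO, 120 regions had a median of -0.38 (-0.62 to -0.09), on the side of acetylation. Where acetylation was higher in DKO and CTCF in HCT116, the median over 50 regions was 1.07 (0.71 to 1.73), again on the side of acetylation.

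Regions at which serine 5 polymerase and acetylation went past 2-fold in opposite directions were few. There were 134 with serine 5 higher in DKO and H3K27Ac higher in HCT116, and 99 the other way. Among the deepest of the former, chosen after their values were seen, chr5:131592607-131594505 had 307 and 24 serine 5 reads (2.84, 2.30 to 3.56) beside 130 and 299 acetylation reads (-1.03). At chr2:233344184-233344650 there were 107 and 10 serine 5 reads (2.56), with acetylation at -1.40 and serine 2 polymerase at 3.93. For CTCF the opposed regions were 67 with serine 5 higher in DKO and 234 with serine 5 higher in HCT116. One of the latter, chr1:28608048-28610371, called in both lines, had 31 and 154 serine 5 reads (-3.05, -3.69 to -2.52) beside 48 and 20 CTCF reads (1.03), with serine 2 polymerase at -3.53. At chr4:11424945-11426015, where CTCF was at 0.89 and so short of 2-fold, there were 3 and 88 serine 5 reads (-5.18, -7.88 to -3.98), and all 41 serine 5 regions within 50 kb were higher in HCT116.

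Some strong differences had neither mark. At chr12:108298283-108298489, a 206 bp region, DKO had 468 reads and HCT116 had 7 (5.11, 4.25 to 6.62), with no overlapping region in any of the other 6 tables. At chr14:48095007-48095259 there were 235 and 4 reads (4.83, 3.77 to 7.03), likewise with no other target. In the HCT116 direction, chr9:12778434-12778674 had 2 and 59 reads (-5.01, -8.65 to -3.65) with serine 2 polymerase at -4.80, and all 23 serine 5 regions within 50 kb were higher in HCT116. The region chr20:31391969-31392148 had 0 DKO reads and 35 HCT116 reads and overlapped no other target. At a floor of 3 DKO reads it was 18.2-fold lower in DKO, and the nearer bound of its counting interval was -3.81. Absent DNA and absent polymerase cannot be told apart at a region with 0 reads.

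The other polymerase tables had medians in the direction of serine 5 where they had a region. By its title the TotalRNAPol2 pair holds total polymerase, but its antibody label is that of serine 5, so which form this table holds cannot be told from the labels. A TotalRNAPol2 region overlapped 76.3% of the serine 5 regions higher in DKO, 67.3% of the similar ones and 26.6% of those higher in HCT116. For serine 2 polymerase the shares were 52.3%, 59.3% and 19.7%. Neither table had a region at 66.6% of serine 5 regions higher in HCT116, 23.9% of similar ones and 19.0% of DKO-higher ones. Over all serine 5 regions TotalRNAPol2 overlapped 58.2% and serine 2 polymerase 48.2%. These shares varied with density, at 14.4% and 12.5% in the lowest quartile and 92.9% and 75.8% in the highest. The part of density in the overlap of each direction was not tested. Where present, the TotalRNAPol2 median was 1.48 at DKO-higher regions and -1.31 at HCT116-higher ones, past 2-fold the same way at 70.5% and 65.4%, against 20.7% and 10.2% of all TotalRNAPol2 regions. The serine 2 medians were 0.96 and -1.05, past 2-fold the same way at 48.7% and 52.1%, against 18.6% and 10.9%.

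Regions higher in HCT116 with and without acetylation had unequal shares of other polymerase. Of the 8406 with H3K27Ac, 27.9% lacked both other polymerase tables, and of the 23051 without it 80.8% did. For regions higher in DKO the shares were 12.7% of 14181 and 29.9% of 8165. For similar regions they were 13.5% of 28009 and 33.8% of 29707. H3K27Ac itself overlapped 14.3% of regions in the lowest density quartile and 83.4% in the highest. The part of density in the shares with and without acetylation was not tested. Where serine 2 polymerase and TotalRNAPol2 were both present, both were past 2-fold in the direction of serine 5 at 45.0% of 10636 regions higher in DKO and at 49.3% of 4076 higher in HCT116. TotalRNAPol2 was past 2-fold that way with serine 2 similar at 8.40% and 5.45%.

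Cohesin and CTCF had smaller median differences than acetylation at regions higher in HCT116. CTCF overlapped 38.5% of serine 5 regions higher in DKO, with a median of 0.97, and 13.0% of those higher in HCT116, with a median of -0.27. RAD21 overlapped 43.0% and 18.1%, with medians of 0.45 and -0.48, and it was past 2-fold the same way at 26.8% and 26.7%, against 13.7% and 8.70% of all RAD21 regions. SMC1 overlapped 38.3% and 15.2%, with medians of 0.62 and -0.34, past 2-fold the same way at 27.7% and 15.0%, against 9.36% and 4.67% of all SMC1 regions. Over all serine 5 regions CTCF overlapped 28.1%, RAD21 32.4% and SMC1 28.6%, and over similar ones 32.7%, 36.8% and 32.9%. The overlap with each target rose from quartile to quartile of density, for CTCF from 8.62% in the lowest to 58.5% in the highest. The part of density in these overlaps was not tested. At similar serine 5 regions the RAD21 median was -0.33 and the SMC1 median -0.06. The sign of each of the medians at regions past 2-fold held under the single scale factor and with chromosome medians removed. Not every subset kept it. Among regions called in both lines, RAD21 was at -0.01 (-0.05 to 0.03) where serine 5 was higher in DKO, while the other medians kept their sign. At regions higher in HCT116 with CTCF only, RAD21 was at 0.18, SMC1 at 0.08 and CTCF at -0.04. In the other overlap classes RAD21 and SMC1 were below 0 at regions higher in HCT116.

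**Figure D5:**
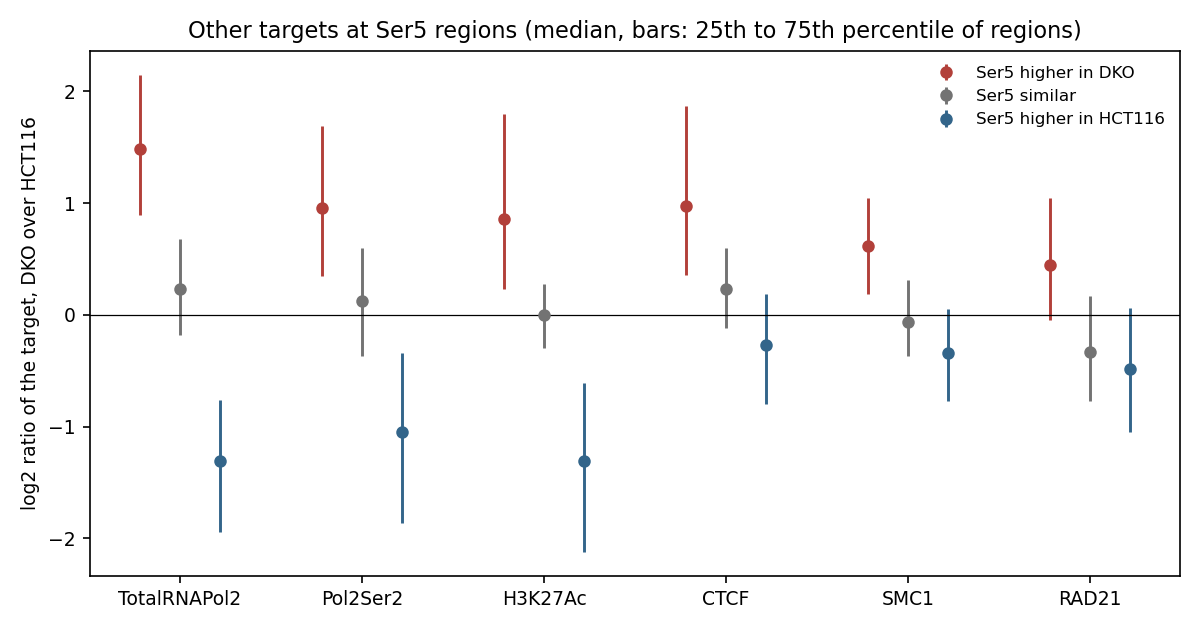
Log2 ratio of each other target, DKO over HCT116 (vertical axis), at serine 5 regions higher in DKO (red), similar (grey) and higher in HCT116 (blue); points are medians over overlapping regions and bars span the 25th to 75th percentile of regions. TotalRNAPol2, serine 2 polymerase and H3K27Ac lie at or beyond about 0.86 on either side. For regions higher in DKO, CTCF at 0.97 lies beyond H3K27Ac at 0.86, while SMC1 and RAD21 are at 0.62 and 0.45. For those higher in HCT116, CTCF, SMC1 and RAD21 are no lower than -0.48.

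Regions of one direction formed clusters in places. Within 10 kb, 70.3% of the regions higher in DKO and 44.9% of those higher in HCT116 had another region of their direction, while 84.3% of all serine 5 regions had any other. Neighbouring regions often share reads, so the counts of clustered regions are not counts of independent sites. Clusters were not counted with 1 region per window. Of 20717 bins of 100 kb with a serine 5 region, 283 held at least 10 regions higher in DKO and none higher in HCT116, and 215 the reverse. The bins with the most, chosen after their values were seen, were chr7:72700001-72800000 for DKO (44 of 55 regions, median 1.90) and chr12:66200001-66300000 for HCT116 (69 of 69, median -2.32). In the former, serine 2 polymerase had a median of 2.56 over 48 regions while H3K27Ac was at -0.06 over 24. In the latter, serine 2 polymerase was at -3.66 over 67 regions and H3K27Ac at -1.01 over 31. At chr11:122000001-122100000, all 62 regions were higher in HCT116 (median -3.33), with acetylation at -3.48 over 58 of them.

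Chromosomes differed in the balance. DKO-higher regions made up 24.6% of those past 2-fold on chromosome 13, 26.7% on 18 and 26.8% on 4, and 71.4% on 22 and 74.0% on 19. The lowest density quartile took 44.0% of regions on chromosomes 13 and 4 and 41.5% on 18, but 10.9% on 22 and 7.48% on 19. Among regions called in both lines, the chromosome medians ranged from -0.15 on 13 to 0.12 on 19, 21 and 22. In the highest density quartile chromosome 21 had the largest share higher in DKO (24.7%, against 0.907% higher in HCT116), and on the X chromosome fewer regions of that quartile were higher in DKO (4.14%) than in HCT116 (6.38%). The part of the lowest quartile in the balance between chromosomes was not tested.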

How the data were processed

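The members, lists and tests were chosen with earlier results of these data known. Reads were aligned with BWA to hg19, and MACS2 is named for all targets but TotalRNAPol2, per the submitters' processing notes; their versions and settings are not stated there. The authors deposited a normalized read density (a signal) for each line, a log2 ratio, a mean log2 density and a p-value per region, per the file headers; the p-value served only as 1 alternative filter. The log2 ratio was recomputed from the densities. Whole reads were recovered from the deposited log2 values: 100% were whole within 0.05, with 1 added to each count and a straight line in density between the lines (intercept 0.59, slope 0.035). This centring hides any change shared by all regions called in both lines. Library totals were not used here.

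Samples were grouped by title. Regions of different tables were matched at an overlap of at least 1 bp, keeping the longest. Intervals at 95% are exact Clopper-Pearson for a log2 ratio (reads without the added count), Wilson for a share and order statistics for a median. They cover only counting error or how regions vary: PCR copies are no independent molecules, and regions do not stand for replicates. Named regions were the 8 first in each direction by the nearer bound, the 4 first per overlap class and for the longest class, and the 4 densest within 0.25 of 0, 1 per 50 kb. Alternatives changed the fold, the centring (a single scale factor for the table, called constant centring, or chromosome medians removed), the regions kept and the overlap. Python 3.11.15, numpy 2.4.6, pandas 2.3.3, scipy 1.17.1 and matplotlib 3.10.9 were used, and recovery and intervals were tested on simulated data.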

Additional observations from a re-analysis of the deposited data

How the results depend on the processing

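No paired analysis was possible because each line had 1 library per target. Promoter windows and gene lists were not run, since genes were not assigned to regions. The 3 alternatives on density quartiles and counting intervals were chosen after seeing the data. Regions higher in DKO and in HCT116 numbered 39500 and 44503 at 1.5-fold, 5973 and 11273 at 4-fold, 2104 and 1855 among regions called in both lines, 15783 and 8237 with a higher density at or above the median, 5836 and 2997 where the p in the authors' deposited table was under 1e-05, 13477 and 25514 with 1 region per window, and 18142 and 10517 without the lowest density quartile. HCT116 kept the larger count with at least 20 reads in both libraries together (22158 and 24608) and where the counting interval excluded 0 (21845 and 28716). Counts moved by less than 1.5 times under these, under each other centring and without the 2 intervals of chromosomes 13 and 20. DKO had the larger count in regions called in both lines, under the filters on density and under the authors' p.

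The median log2 ratio of the longest minus the shortest regions was 0.34. It became 0.47 under constant centring, 0.16 in regions called in both lines, 0.22 with at least 20 reads, 0.66 with 1 region per window, 0.03 without the lowest density quartile, and reversed to -0.10 at or above the median density and -0.04 in the highest density quartile. The highest minus the lowest density class, 1.34, became 1.45 under constant centring, 1.22 with chromosome medians removed, 0.34 in both lines, 2.92 at or above the median density, 1.05 with at least 20 reads, 1.37 with 1 region per window and 0.92 with classes by the higher density.

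Regions with H3K27Ac minus regions with neither target, 0.48, became 0.54 under constant centring, 0.45 with chromosome medians removed, 0.04 in both lines, 0.35 with at least 20 reads, 0.73 with 1 region per window, 0.32 with 50% of the region covered, 0.88 with a gap of up to 5 kb, 0.16 without the lowest quartile and -0.01, reversed, in the highest quartile. CTCF only minus neither, 0.47, became 0.42 with chromosome medians removed, 0.04 in both lines, 0.36 with at least 20 reads, 0.65 with 1 region per window, 0.36 with a gap of up to 5 kb, 0.21 without the lowest quartile and 0.12 in the highest. The Spearman correlation with H3K27Ac, 0.63, became 0.61 under constant centring, 0.55 in both lines, 0.66 with 1 region per window and with 50% covered, 0.43 with a gap of up to 5 kb and 0.60 without the lowest quartile. The Spearman correlation with CTCF, 0.47, became 0.45 under constant centring and with chromosome medians removed, 0.37 in both lines, 0.50 with 1 region per window, 0.43 with 50% covered, 0.31 with a gap and 0.46 without the lowest quartile. The cause of these shifts was not tested. Of 78 values for 39 named regions under 2 centrings, 75 stayed within the counting interval and 3, all of similar regions, did not.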
